A study of Homo sapiens with 6 samples.

Results

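The 10 genes described here handle cellular iron. They are the metalloreductase genes STEAP1, STEAP2, STEAP3 and STEAP4, the uptake genes TFRC and SLC11A2, the ferritin genes FTH1 and FTL, the exporter gene SLC40A1, and IREB2, which encodes an iron sensor. They were chosen by gene symbol from a table of 60662 genes, and each symbol matched 1 row. The cells were DU-145, a human prostate cancer line, stably carrying a tetracycline-inducible hairpin against MUC1, a transmembrane mucin gene. The DOX-positive group is 3 cultures given doxycycline (DOX) for 7 days, and the DOX-negative group is 3 cultures given vehicle for the same time. All cultures were also exposed to 10 ng/ml of the cytokine interferon-gamma (IFN-gamma) during 24 hours. RNA was sequenced as polyadenylated, strand-specific libraries. Cells without IFN-gamma and cells with a control hairpin were not analysed here, so the comparison measures DOX and the hairpin together in IFN-gamma-treated cells. Whether the line is a single clone is not given in the sources used here.

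Iron reaches most cells bound to transferrin, which the transferrin receptor carries into endosomes. There a metalloreductase of the STEAP family reduces ferric to ferrous iron, which SLC11A2 (DMT1) moves into the cytosol. Iron that is not used is stored in ferritin, a shell of heavy (FTH1) and light (FTL) chains, or leaves through ferroportin (SLC40A1). The iron regulatory proteins, encoded by ACO1 and IREB2, bind hairpins called iron-responsive elements (IREs) when iron is scarce. Binding in a 5′ untranslated region (UTR) blocks translation, and binding in a 3′ UTR stabilises the mRNA. STEAP1 and STEAP2 were described first in prostate tissue, and STEAP1 is a cell-surface target in prostate cancer.

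The IREs are shown because they are the sequences through which the iron regulatory proteins are known to act on some of the members. Transcripts were searched on the sense strand, within UTRs, for a C, any 5 bases, the loop CAGTGN with any last base but G, and 5 bases that pair with the first 5 (G-T pairs allowed). The form was found in 4 of the 10 members and in 0.66% of 19702 protein-coding genes. The members were chosen as iron-handling genes, so setting these shares side by side is not a test. The FTH1 (chr11:61967574-61967602, minus strand), FTL (chr19:48965335-48965363, plus strand) and SLC40A1 (chr2:189580661-189580689, minus strand) elements lay in the 5′ UTR. The 4 elements that this search found in TFRC lay in the 3′ UTR, all on the minus strand. They are lettered here along the transcript, at chr3:196050979-196051007 (element a), chr3:196050575-196050603 (b), chr3:196050510-196050538 (c) and chr3:196050463-196050491 (d). Elements of another form would be missed. When 4 of the 5 pairs were enough, the form was also found in the 3′ UTR of SLC11A2 (chr12:50988269-50988297, minus strand) and of IREB2, and in 4.43% of genes. Sequences are from GENCODE 29 on GRCh38, 5′ to 3′, with the loop in capitals.
FTH1: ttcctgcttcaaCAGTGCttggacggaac
FTL: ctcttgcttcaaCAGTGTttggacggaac
SLC40A1: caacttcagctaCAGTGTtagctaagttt
TFRC a: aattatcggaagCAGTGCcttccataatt
TFRC b: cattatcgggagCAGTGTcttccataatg
TFRC c: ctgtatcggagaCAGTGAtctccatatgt
TFRC d: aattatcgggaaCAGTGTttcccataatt
SLC11A2: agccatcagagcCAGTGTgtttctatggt
The FTH1 and FTL stretches differed at 3 of 29 positions, written with the FTH1 base first and counted from the 5′ end as T1C, C4T and C18T, the last of them in the loop. The element was in 7 of 8 protein-coding transcripts of FTH1, 3 of 4 of TFRC, 1 of 5 of SLC40A1 and 5 of 18 of SLC11A2. The counts are per gene, so transcripts with and without the element cannot be told apart in them. A match describes these letters only, and UTR lengths differ between genes.

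Total counts ran from 105358357 to 150921436 reads in DOX-positive libraries and from 87739734 to 138844816 in DOX-negative libraries, where 3 reads correspond to at most 0.0342 CPM (read counts scaled to a common library size). MUC1 read 1.31 to 1.53 CPM in DOX-positive libraries and 20.4 to 22.2 CPM in DOX-negative libraries, which goes with the labels. The epithelial markers EPCAM, CDH1, KRT8, KRT18 and KRT19 were all above 1 CPM and summed to 2261 to 2350 CPM in DOX-positive and 813 to 864 CPM in DOX-negative libraries. All 5 were called higher, and their part in the results on the iron genes was not tested. The prostate luminal markers KLK2, KLK3 and TMPRSS2 were each under 1 CPM, and KLK3 had no read in any library. Leukocyte markers summed to 0.541 to 0.616 CPM in DOX-positive and 1.14 to 1.19 CPM in DOX-negative libraries, with CD3E and MS4A1 at 0. Fibroblast markers, nearly all COL1A1, summed to 4.58 to 4.98 CPM in DOX-positive and 6.16 to 7.33 CPM in DOX-negative libraries, and the part of these markers in the results was not tested. A difference in RNA per cell cannot be told apart here from a difference in the number of cells of a type.

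All 10 members were measured well above this floor and entered the test. The rise in DOX-positive cells was largest for STEAP1 and TFRC, and FTL, STEAP3 and IREB2 fell by at most 0.22 on the log2 scale. In all 6 members were called higher, 3 lower and 1 was not called (edgeR quasi-likelihood test, Benjamini-Hochberg adjusted p under 0.05 over 24695 genes). Over all genes tested 56.5% were called, 27.6% higher and 28.9% lower, and among the 15009 genes with a mean of at least 1 CPM, as all members have, 73.3% were called. The members' 9 of 10 called is near the share at their level. Their median log2 fold change was 0.11, against -0.042 over all genes tested and 0.054 over the genes with at least 1 CPM. Their median absolute log2 fold change was 0.21, against 0.37 over all genes tested and 0.296 over the genes with at least 1 CPM. A 2-fold change was reached by 1 of the 10, STEAP1, against 7.94% of genes with at least 1 CPM and 12.9% of all genes tested, and 3.56% of all genes tested were at least 2-fold higher. The groups did not overlap for 8 of 10 members, against 62.4% of all genes tested and 76.7% of genes with at least 1 CPM.

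**Figure D1:**
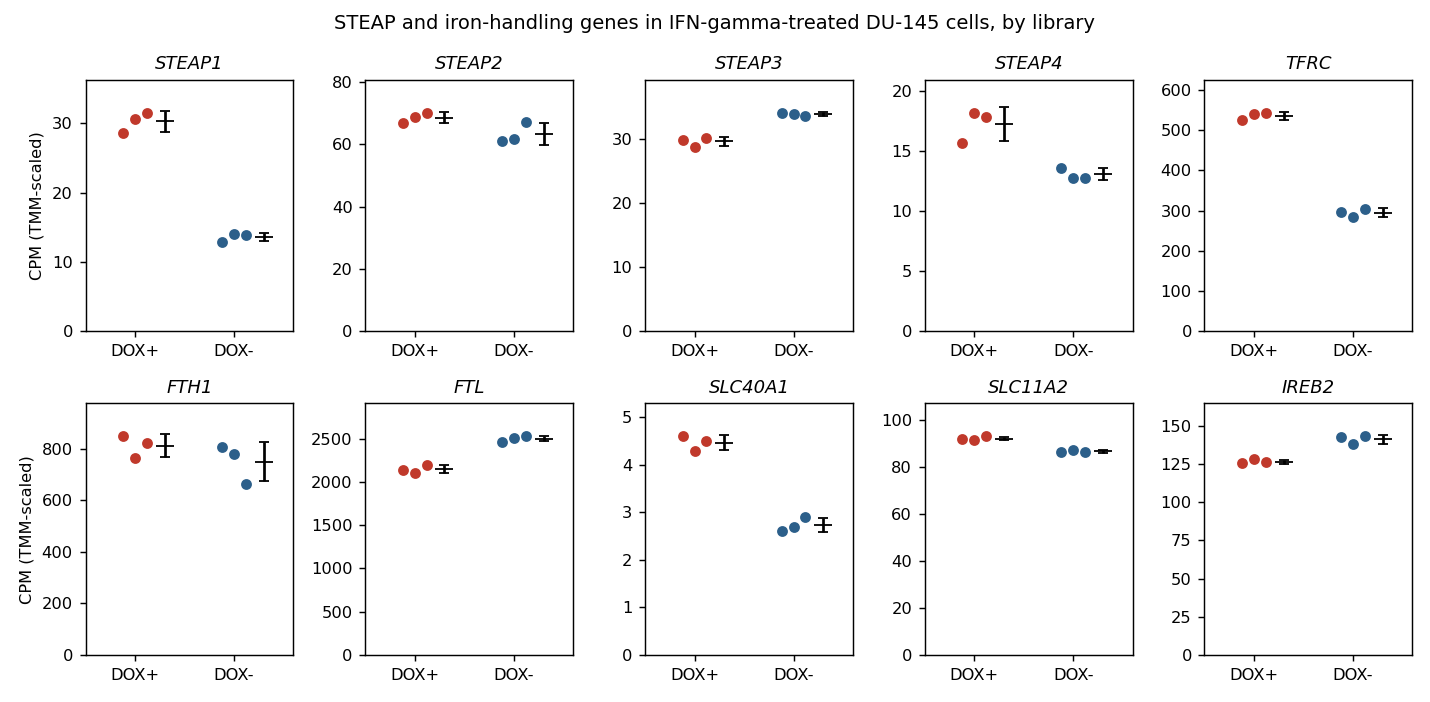
Each panel plots the TMM-scaled CPM of 1 gene in the 3 DOX-positive (left, red) and 3 DOX-negative (right, blue) libraries, with the mean and SD in black beside them and the axis starting at 0. STEAP1, TFRC and SLC40A1 separate widely, while STEAP2 and FTH1 overlap between the groups.

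Among the metalloreductases, STEAP1 rose, STEAP4 rose less, STEAP3 fell and STEAP2 rose least. STEAP1 (ENSG00000164647.9, chromosome 7, 90154375 to 90164829, plus strand) lacks the oxidoreductase domain of its relatives and is thought to act in complexes with them. It read 28.6, 30.7 and 31.5 CPM in the DOX-positive libraries and 12.9, 14.0 and 13.8 CPM in the DOX-negative libraries. The lowest DOX-positive library was above the highest DOX-negative one. Mean STEAP1 was 30.3 ± 1.51 CPM in DOX-positive and 13.6 ± 0.598 CPM in DOX-negative cells (SD, n = 3 each), a 2.23-fold rise (log2 fold change 1.16, SE 0.049, edgeR adjusted p = 5.07e-12). STEAP1B, a close relative of STEAP1 with which it can share reads, rose as well, to 3.92 ± 0.432 CPM in DOX-positive cells, against 2.74 ± 0.346 CPM in DOX-negative cells (log2 fold change 0.52, edgeR adjusted p = 0.00153).

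STEAP2 (ENSG00000157214.14, chromosome 7, 90167590 to 90238137, plus strand) encodes an iron and copper reductase of the Golgi and the plasma membrane. It read 66.7, 68.6 and 70.1 CPM in the DOX-positive libraries and 60.9, 61.6 and 67.2 CPM in the DOX-negative libraries. DOX-negative replicate 3 lay within the DOX-positive range. STEAP2 rose by 0.11 on the log2 scale (SE 0.038, edgeR adjusted p = 0.0167). It was not called under 5 of 15 alternatives, over which its adjusted p ran from 0.000849 to 0.509. With library size alone its log2 fold change was -0.028 (edgeR adjusted p = 0.509). It also missed the threshold without DOX-positive replicate 3 (0.11, edgeR adjusted p = 0.0672) and without DOX-negative replicate 1 (0.11, 0.0516).

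STEAP3 (ENSG00000115107.20, chromosome 2, 119223831 to 119265652, plus strand) encodes the reductase known, from mouse erythroid precursors, to act on iron released from transferrin in endosomes. It read 29.9, 28.8 and 30.2 CPM in the DOX-positive libraries and 34.2, 33.9 and 33.6 CPM in the DOX-negative libraries. Every DOX-positive library was below every DOX-negative one. STEAP3 fell by 0.19 on the log2 scale (SE 0.035, edgeR adjusted p = 0.000169). STEAP4 (ENSG00000127954.12, chromosome 7, 88270892 to 88306891, minus strand) encodes a metalloreductase known from adipocytes, where inflammatory cytokines induce it. It read 15.6, 18.2 and 17.8 CPM in the DOX-positive libraries and 13.6, 12.8 and 12.7 CPM in the DOX-negative libraries. The groups did not overlap, with DOX-positive replicate 1 the lowest of its group. STEAP4 rose 1.32-fold (log2 fold change 0.40, SE 0.061, edgeR adjusted p = 2.57e-05).

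STEAP1 and STEAP2 lie 2760 bases apart on the same strand. The ratio of STEAP2 to STEAP1 reads within a library does not depend on how libraries are scaled. It was 2.33, 2.24 and 2.22 in the DOX-positive libraries and 4.73, 4.42 and 4.85 in the DOX-negative libraries. The ratio was lower in each DOX-positive library than in any DOX-negative one, by 1.04 on the log2 scale (exact two-sided permutation p = 0.10, the smallest that 3 against 3 libraries allow). Around STEAP1, STEAP2 and STEAP4, within 500 kb, 35 other genes are annotated and 11 of them could be tested. Of these 11, 3 were called higher and 5 lower, against 27.6% higher and 28.9% lower over all genes tested. Among genes with at least 1 CPM, 73.3% were called either way. With library size alone the 11 split into 2 higher and 6 lower, and all genes tested into 4689 and 9579. The median log2 fold change of the 11 was -0.28, against -0.042 over all genes tested. Whether this region differs from others was not tested. The tight-junction gene CLDN12 rose by 0.41, the sorcin gene SRI by 0.24 and GTPBP10 by 0.14. CDK14, a cyclin-dependent kinase, fell by 0.97, CFAP69 by 0.57, the mitochondrial carrier SLC25A40 by 0.56, ADAM22 by 0.46 and RUNDC3B by 0.28. RUNDC3B lost its call under 6 of 15 alternatives, among them leaving out DOX-positive replicate 1 (-0.19), DOX-positive replicate 3 (-0.29), DOX-negative replicate 2 (-0.24) or DOX-negative replicate 3 (-0.25). GTPBP10 lost its call under 2. DBF4, AC003991.2 and AC003991.1 were not called, with log2 fold changes of 0.055, 0.33 and -0.48. With 1 library left out in turn these lay between 0.027 and 0.097 for DBF4, 0.23 and 0.57 for AC003991.2, and -0.64 and -0.25 for AC003991.1. DBF4 was called lower with library size alone (-0.089, edgeR adjusted p = 0.0356). The antisense gene STEAP2-AS1, which overlaps both STEAP1 and STEAP2, had between 0 and 10 reads per library and was not tested. AC003991.1 shares 33476 bases with STEAP4 on the other strand and had between 26 and 65 reads per library.

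TFRC, which encodes the transferrin receptor, was the second most changed member. TFRC (ENSG00000072274.13, chromosome 3, 196027183 to 196082189, minus strand) read 524, 539.7 and 544 CPM in the DOX-positive libraries and 297, 284 and 305 CPM in the DOX-negative libraries. The 3 DOX-positive libraries lay far above the 3 DOX-negative ones. TFRC averaged 536 ± 10.3 CPM in DOX-positive and 295 ± 10.7 CPM in DOX-negative cells (SD, n = 3 each), a 1.82-fold rise (log2 fold change 0.86, SE 0.033, edgeR adjusted p = 1.4e-12). SLC11A2 (ENSG00000110911.16, chromosome 12, 50979401 to 51028566, minus strand) encodes DMT1, the ferrous iron transporter of endosomes. It read 91.7, 91.6 and 93.1 CPM in the DOX-positive libraries and 86.3, 87.2 and 86.3 CPM in the DOX-negative libraries. The groups did not overlap, by a narrow margin. SLC11A2 rose by 0.089 on the log2 scale (SE 0.030, edgeR adjusted p = 0.0188). It was not called under 4 of 15 alternatives, over which its adjusted p ran from 0.00359 to 0.376. With library size alone its value was -0.054 (edgeR adjusted p = 0.102), and it missed the threshold without DOX-positive replicate 3 too (0.089, edgeR adjusted p = 0.0538).

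The ferritin chains differed from each other. FTL (ENSG00000087086.15, chromosome 19, 48965301 to 48966878, plus strand), the light chain, which helps the iron core to form, read 2144, 2106 and 2199 CPM in the DOX-positive libraries and 2465, 2512 and 2529 CPM in the DOX-negative libraries. Every DOX-positive library was lower. FTL fell by 0.22 on the log2 scale (SE 0.022, edgeR adjusted p = 2.11e-07). FTH1 (ENSG00000167996.16, chromosome 11, 61959718 to 61967660, minus strand), the heavy chain, which oxidises iron on entry, read 848, 763 and 823 CPM in the DOX-positive libraries and 805, 780.2 and 662 CPM in the DOX-negative libraries. The groups overlapped, and DOX-negative replicate 3 was the lowest library. FTH1 differed by 0.11 on the log2 scale (SE 0.055, edgeR adjusted p = 0.088) and was not called. Without DOX-negative replicate 1 it was 0.19 and called (edgeR adjusted p = 0.00349), and without DOX-positive replicate 2 it was 0.17 and called (0.0342). Over 15 alternatives the adjusted p of FTH1 ran from 2.11e-05 to 0.687. Without DOX-negative replicate 3 its value was 0.053 (edgeR adjusted p = 0.407).

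The ratio of FTH1 to FTL reads was 0.395, 0.362 and 0.374 in the DOX-positive libraries and 0.326, 0.311 and 0.262 in the DOX-negative libraries. It was higher in each DOX-positive library, by 0.34 on the log2 scale (exact two-sided permutation p = 0.10, the smallest possible). Both genes have many processed copies in the genome, and the table holds 24 FTH1 and 16 FTL pseudogene rows. Reads on the FTH1 copies came to 18.1%, 18.7% and 16.1% of FTH1 reads in DOX-positive replicates 1, 2 and 3, and to 9.03%, 17.9% and 19.1% in DOX-negative replicates 1, 2 and 3. For FTL the shares were 1.82%, 1.68% and 1.502% in the DOX-positive libraries and 0.872%, 1.61% and 1.41% in the DOX-negative libraries. DOX-negative replicate 1 had the lowest share for both genes. With the copies added to their parents, an alternative chosen after seeing the data, FTH1 rose by 0.15 (edgeR adjusted p = 0.0115) and FTL fell by 0.21 on the log2 scale. How reads shared by copies were counted is not given in the sources used here, so the FTH1 value is uncertain. FTH1 also shares 5798 bases with the protein-coding gene BEST1 on the other strand, and the strand setting of the counting is not stated.

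The ratio of TFRC to FTH1 reads, an uptake gene against a storage gene, was 0.618, 0.707 and 0.661 in the DOX-positive libraries and 0.369, 0.363 and 0.460 in the DOX-negative libraries. It was higher in every DOX-positive library, by 0.74 on the log2 scale (exact two-sided permutation p = 0.10, the smallest possible). The 3 ratios are 1 family of tests, and all adjusted p-values would be 0.10 as well.

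**Figure D2:**
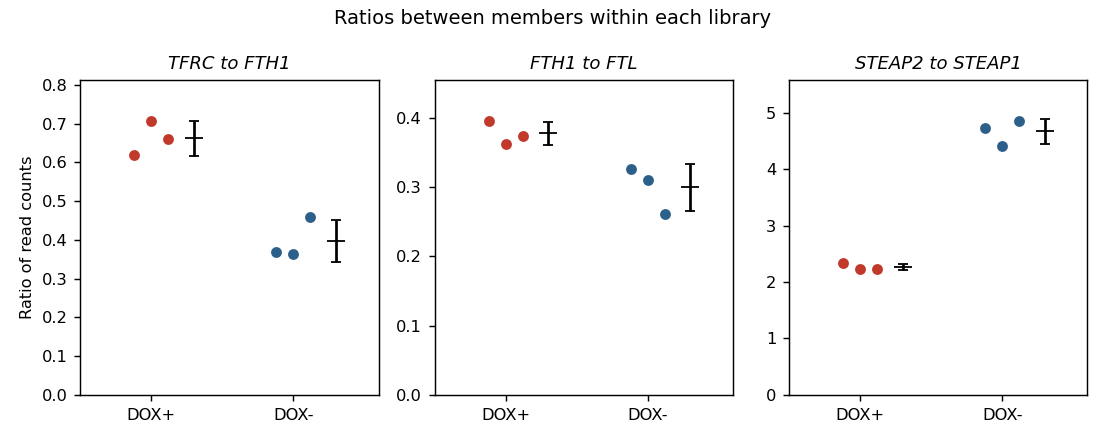
Ratios of read counts between 2 members within each library, for 3 DOX-positive (left, red) and 3 DOX-negative (right, blue) libraries, with mean and SD in black. TFRC to FTH1 and FTH1 to FTL are higher in every DOX-positive library, and STEAP2 to STEAP1 is lower.

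The gene SLC40A1 (ENSG00000138449.10, chromosome 2, 189560579 to 189583758, minus strand) encodes the only known exporter of non-heme iron. It had the lowest CPM of the members. It read 4.6001, 4.30 and 4.49 CPM in the DOX-positive libraries, from 445 to 621 reads, and 2.62, 2.69 and 2.91 CPM in the DOX-negative libraries, from 260 to 395 reads. The groups were clearly apart. SLC40A1 rose 1.63-fold (log2 fold change 0.71, SE 0.10, edgeR adjusted p = 1.24e-05). IREB2 (ENSG00000136381.13, chromosome 15, 78437431 to 78501456, plus strand) encodes iron regulatory protein IRP2. It read 125, 128 and 126 CPM in the DOX-positive libraries and 143, 138 and 143 CPM in the DOX-negative libraries. All DOX-positive libraries were lower. IREB2 fell by 0.16 on the log2 scale (SE 0.032, edgeR adjusted p = 0.000473).

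Of the members, 7 kept their call and direction under all 15 alternatives, 4 higher (STEAP1, STEAP4, TFRC and SLC40A1) and 3 lower (STEAP3, FTL and IREB2). STEAP2, SLC11A2 and FTH1 had log2 fold changes smaller than the 0.14 by which library size alone lowers the median of all genes. The members whose IRE lies in the 5′ UTR did not share a direction, with SLC40A1 higher, FTL lower and FTH1 not called. Binding there blocks translation, which read counts do not measure, so these directions are not a test of it. For SLC40A1 the element was in only 1 of 5 protein-coding transcripts, and the counts are per gene.

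**Figure D3:**
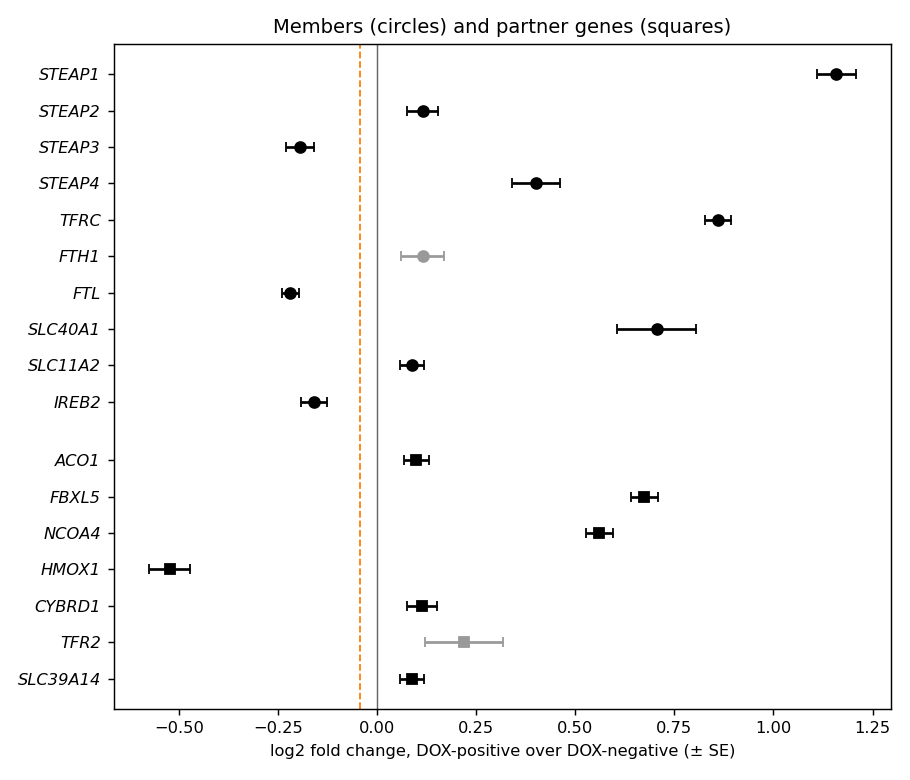
Log2 fold changes, DOX-positive over DOX-negative, with SE bars, for the 10 members (circles) and 7 partner genes (squares). Black marks passed an edgeR adjusted p of 0.05, grey did not, and the dashed line is the median of all genes tested at -0.042. STEAP1 lies farthest to the right among the members, and HMOX1 is the lowest of the 7 partners shown, at -0.52. TF, HAMP and CP, all under 1 CPM, were tested but are not shown.

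Levels of different genes were compared per length, as TPM (read counts divided by the deposited gene length and scaled to a common total), and only within a group. TPM carry no TMM scaling, so they can differ from CPM between groups. Mean TPM of FTH1, SLC11A2 and STEAP2 was lower in DOX-positive cells, although their mean CPM was higher. STEAP4 was higher by both, but its groups overlapped in TPM. In DOX-positive cells FTL led with 7913 ± 174 TPM, followed by FTH1 with 1297 ± 50.8, TFRC with 221 ± 7.22, STEAP1 with 62.9 ± 3.86 and IREB2 with 37.6 ± 0.973 TPM (SD, n = 3). SLC11A2 (29.9 ± 0.526 TPM), STEAP2 (25.2 ± 0.925), STEAP3 (20.8 ± 0.365), STEAP4 (4.91 ± 0.467) and SLC40A1 (3.30 ± 0.0640) came next, and no neighbours in this order overlapped. In DOX-negative cells FTL had 10702 ± 365 TPM, FTH1 1393 ± 156, TFRC 141 ± 9.93, IREB2 48.8 ± 2.91 and STEAP1 32.7 ± 0.835 TPM. STEAP1 and SLC11A2 (32.6 ± 1.13 TPM) overlapped there, as did STEAP3 (27.7 ± 1.19) and STEAP2 (27.0 ± 1.86). STEAP4 (4.32 ± 0.318 TPM) and SLC40A1 (2.36 ± 0.153) were last in DOX-negative cells too. STEAP1 thus stood above IREB2 in DOX-positive cells and below it in DOX-negative cells.

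**Figure D4:**
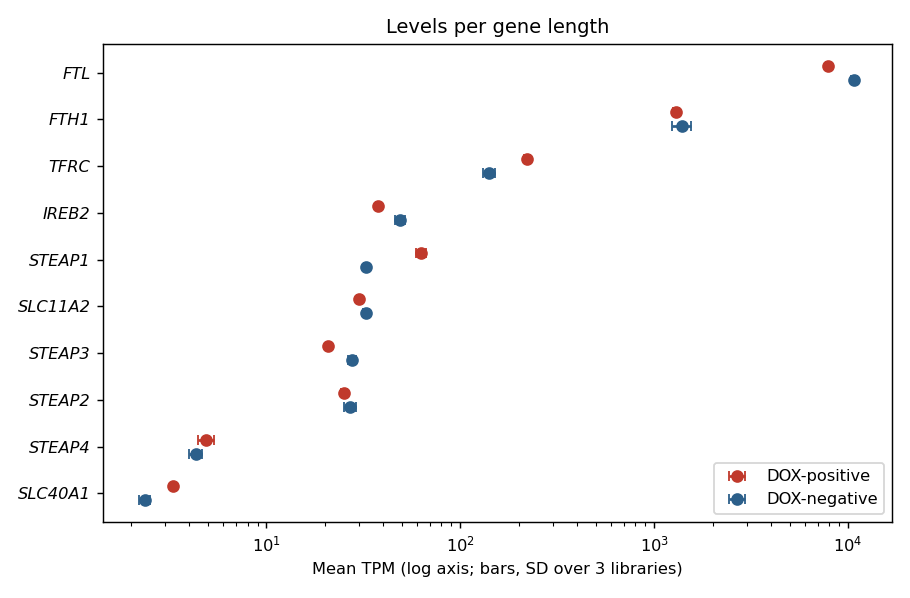
Mean TPM on a log axis, with SD over 3 libraries, of each member in DOX-positive (red, upper mark) and DOX-negative (blue, lower mark) cells, ordered by the DOX-negative mean. The ferritin genes lead and SLC40A1 is last in both groups. TPM carry no TMM scaling, so the order is to be read within a group and not between groups.

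The 3 genes whose pattern over the 6 libraries was most like that of STEAP1, by Euclidean distance of centred log2 CPM among genes with at least 1 CPM, were WDR66 (distance 0.0812), MAP7 (0.0858) and TOMM34 (0.0927). WDR66 averaged 51.6 ± 2.37 CPM in DOX-positive and 23.1 ± 0.997 CPM in DOX-negative cells. With 2 groups of libraries, this likeness mostly reflects a similar fold change.

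The wider pathway was read from 10 lists chosen from knowledge of iron, heme, copper and ferroptosis biology, with the members left out. Among the deposited rows 124 such genes were found and 117 could be tested, of which 58 were called higher and 26 lower. Their median was 0.13 on the log2 scale. Among the 15009 genes with at least 1 CPM, 73.3% were called, 6158 higher and 4838 lower, with a median of 0.054 on the log2 scale. With library size alone the split was 42 higher and 39 lower, with a median of -0.013 on the log2 scale. All genes tested then split into 4689 higher and 9579 lower, with a median of -0.185, against 6825 and 7132, with a median of -0.042, in the main fit. The balance of higher and lower calls thus moved with the scaling in the lists and over all genes alike. Several lists share genes.

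In the list of iron sensing and IRE-bearing genes 5 of 8 genes were called higher and 1 lower (3 and 1 with library size alone). FBXL5, the ubiquitin ligase subunit that senses iron and marks IRP2 for degradation, rose 1.596-fold to 270.3 ± 3.999 CPM in DOX-positive cells, against 169 ± 5.51 CPM in DOX-negative cells (edgeR adjusted p = 4.08e-11). EPAS1, which encodes HIF-2alpha and is known to carry an IRE in its 5′ UTR, rose 1.43-fold. ACO1, which encodes IRP1, had a log2 change of 0.0997 (edgeR adjusted p = 0.0126). ACO1 was at -0.044 with library size alone (edgeR adjusted p = 0.192), and its adjusted p ran from 0.00224 to 0.239 over 15 alternatives. In the ferritin list 3 of 7 tested genes were called higher and 1 lower (3 and 3 with library size alone). NCOA4, the receptor that delivers ferritin for autophagy, rose 1.47-fold to 411 ± 10.6 CPM in DOX-positive cells, against 279 ± 9.65 CPM in DOX-negative cells (edgeR adjusted p = 4.58e-10). The glutaredoxin GLRX3 rose 1.36-fold. The iron chaperone PCBP1 rose 1.27-fold, with an uncertain value because the antisense gene PCBP1-AS1 spans it.

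Iron import genes other than the members went both ways, with 6 of 11 called higher and 2 lower (3 and 2 with library size alone). SLC39A8 (ZIP8), an importer of zinc, manganese and iron, rose 1.99-fold to 106 ± 3.23 CPM in DOX-positive cells, against 53.1 ± 3.22 CPM in DOX-negative cells. LCN2, a secreted protein that binds bacterial siderophores, fell 2.74-fold to 17.9 ± 0.920 CPM in DOX-positive cells, against 49.1 ± 1.11 CPM in DOX-negative cells (edgeR adjusted p = 3.66e-14). NDFIP1, an adaptor for the ubiquitin ligases that act on DMT1, rose 1.27-fold. SLC39A14 (ZIP14), an importer of iron not bound to transferrin, had a log2 change of 0.088 (edgeR adjusted p = 0.0214). SLC39A14 was at -0.056 with library size alone (edgeR adjusted p = 0.0773), and its adjusted p ran from 0.00243 to 0.394 over 15 alternatives. It lost its call without DOX-negative replicate 1 as well (0.10, edgeR adjusted p = 0.0581). TFR2, a second transferrin receptor, read 4.89 ± 0.265 CPM in DOX-positive and 4.19 ± 0.438 CPM in DOX-negative cells (edgeR adjusted p = 0.0664). It was called without DOX-negative replicate 3 (0.29, edgeR adjusted p = 0.0303), and its adjusted p ran from 0.0303 to 0.526 over 15 alternatives. TF, which encodes transferrin, was under 0.2 CPM in the mean of each group.

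Among other reductases 3 of 7 were called higher and none lower (2 and 1 with library size alone). CYB561 rose 1.39-fold to 40.2 ± 0.486 CPM in DOX-positive cells, against 28.95 ± 1.09 CPM in DOX-negative cells. CYBRD1, duodenal cytochrome b, had a log2 change of 0.11 (edgeR adjusted p = 0.0162). CYBRD1 was at -0.030 with library size alone (edgeR adjusted p = 0.474), and its adjusted p ran from 0.0012 to 0.474 over 15 alternatives. It lost its call without DOX-positive replicate 2 (0.11, edgeR adjusted p = 0.065) and without DOX-negative replicate 2 (0.074, 0.0556).

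In the export and hepcidin list 1 of 7 tested genes was called higher and 3 lower. HAMP, which encodes hepcidin, read 0.108 ± 0.0204 CPM in DOX-positive and 0.0947 ± 0.0423 CPM in DOX-negative cells. CP, the ferroxidase ceruloplasmin, read 0.604 ± 0.0719 CPM in DOX-positive and 0.543 ± 0.0926 CPM in DOX-negative cells, and neither was called. HEPH, the related hephaestin, was too low to test. BMP6, an inducer of hepcidin in the liver, rose 2.01-fold, ERFE, its antagonist erythroferrone, fell 2.50-fold, and NEO1 fell 1.19-fold.

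Iron-using pathways were mixed. Of 23 mitochondrial iron and iron-sulfur assembly genes 13 were called higher and 5 lower (9 and 8 with library size alone). The cysteine desulfurase NFS1 rose 1.66-fold and the glutaredoxin GLRX5 1.58-fold, while CIAO1 of the cytosolic assembly complex fell 1.55-fold. Of 12 heme synthesis genes 6 were called higher and 2 lower (5 and 4 with library size alone). FECH, which inserts iron into heme, fell 1.74-fold to 38.6 ± 0.354 CPM in DOX-positive cells, against 67.1 ± 3.06 CPM in DOX-negative cells, while UROD rose 1.59-fold and UROS 1.241-fold. Of 12 heme degradation and transport genes 5 were called higher and 4 lower (3 and 6 with library size alone). HMOX1, the inducible heme oxygenase, fell 1.44-fold to 11.3 ± 0.454 CPM in DOX-positive cells, against 16.3 ± 0.291 CPM in DOX-negative cells, and the hemopexin receptor LRP1 fell 1.74-fold. HMOX2, the constitutive heme oxygenase, rose 1.73-fold and overlaps NMRAL1 on the other strand.

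Of 15 copper-handling genes 9 were called higher and 2 lower (8 and 5 with library size alone), around a median of 0.43 on the log2 scale. The metallothioneins led, with MT2A 2.79-fold higher at 1701 ± 86.9 CPM in DOX-positive cells, against 609 ± 29.3 CPM in DOX-negative cells. MT1E rose 2.28-fold and MT1X 2.18-fold. Metallothioneins bind zinc and copper. The MT1 copies are near-identical, so the MT1E and MT1X values are uncertain. Sharing of reads among metallothionein genes, MT2A included, was not tested. Of 16 ferroptosis and lipid peroxide genes 7 were called higher and 6 lower (5 and 6 with library size alone). The antioxidant regulator NFE2L2 fell 1.71-fold and GCLC, the first enzyme of glutathione synthesis, 1.52-fold. PTGS2, a cyclooxygenase, rose 5.93-fold to 3.99 ± 0.283 CPM in DOX-positive cells, against 0.677 ± 0.0968 CPM in DOX-negative cells.

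**Figure D5:**
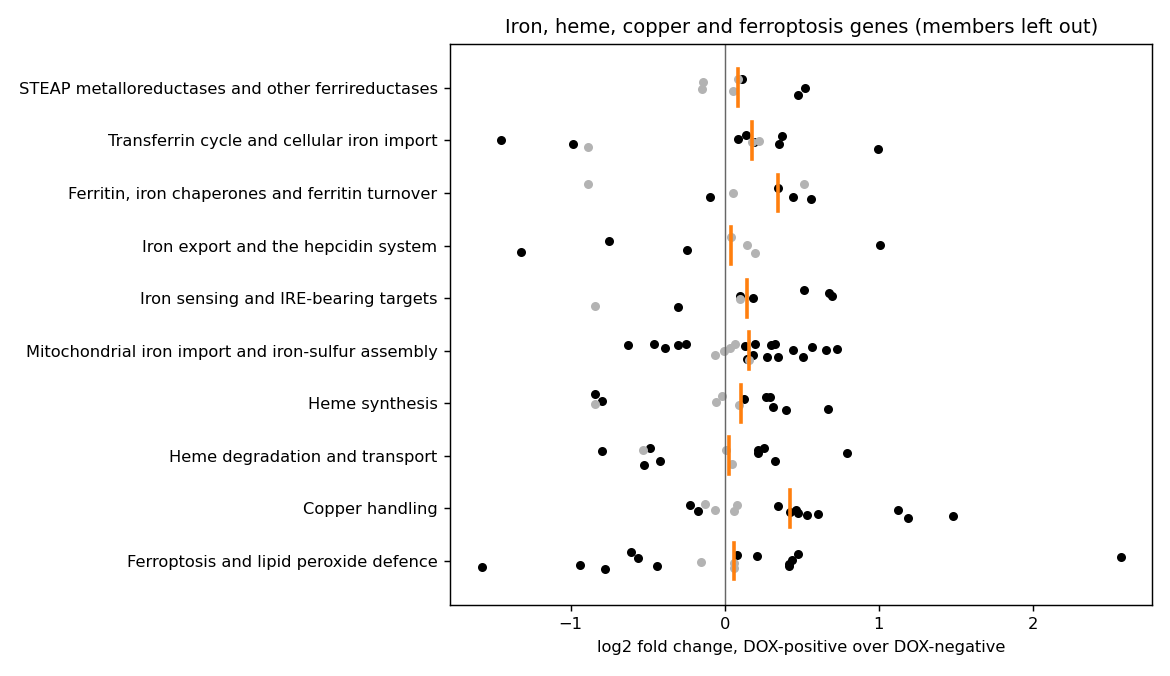
Log2 fold changes, DOX-positive over DOX-negative, of the tested genes of each list, with the members left out. Black points passed an edgeR adjusted p of 0.05, grey points did not, and orange bars are list medians, which range from 0.027 for heme degradation and transport to 0.43 for copper handling.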

How the data were processed

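The authors' deposited table holds raw read counts per gene for 6 libraries, and gives each gene's length. Tools named in the submitters' processing notes, without roles, are STAR 2.7.9a, CASAVA 1.8.2 and DESeq2 1.24.0, with the build GRCh38.p7. The sources used here do not state the counter, annotation or strand setting. Groups came from sample titles. Genes passing filterByExpr (minimum count 10, minimum total 15) were tested with edgeR 4.0.16 in R 4.3.3 (TMM scaling, quasi-likelihood, group only), with p-values adjusted over all 24695 genes. CPM use TMM-scaled library sizes. Standard errors were taken as |log2 fold change|/√F. Labels speak of triplicate cultures, and p-values thus cover only variation among those cultures. Chi-square per degree of freedom between replicates was at least 6.40, so none agreed within sampling noise. Floors cover counting error only. Positions, overlaps and IREs came from GENCODE 29 (GRCh38).

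Named genes were the members, MUC1, 11 partner genes, the 3 genes with the smallest p among those called in each list, the tested STEAP neighbours and the 3 genes most like STEAP1. Some genes this rule names are not reported here. Members and lists were chosen with earlier results of these data known. Alternatives were DESeq2 1.42.0 size factors or Wald test, upper-quartile or library-size scaling, 2 other filters, limma-voom (limma 3.58.1), a replicate block, each library left out, and ferritin pseudogene rows added to their parents.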

Additional observations from a re-analysis of the deposited data

How the results depend on the processing

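With library size alone, which moves the median of all genes by -0.14, log2 fold changes turned to -0.028 for STEAP2, -0.029 for FTH1, -0.054 for SLC11A2, -0.030 for CYBRD1, -0.044 for ACO1, -0.056 for SLC39A14, -0.089 for DBF4 and -0.0031 for GTPBP10. DBF4 was -0.0049 with upper-quartile scaling, and HAMP lay between -0.0041 and 0.58 with 1 library left out. STEAP2 and SLC11A2 were no longer called with upper-quartile scaling (0.055 and 0.029) or with at least 1 CPM in 3 libraries (0.078 and 0.052). FTH1 was called with DESeq2 size factors (0.14), with no filter (0.13) and with pseudogene rows added (0.15), the last an alternative added after seeing the data. The causes were not tested. With each library left out in turn, STEAP2 lay between 0.094 and 0.18, FTH1 between 0.053 and 0.19 and SLC11A2 between 0.089 and 0.11. Members called higher lay between 4 and 7 under that alternative, members called lower stayed at 3, and genes called over the whole table between 12807 and 13413. All genes called split into 6825 higher and 7132 lower, or 4689 and 9579 with library size alone. Of 745 values for the 50 other named genes, 719 kept direction and side of the threshold, 16 lost a call with the same sign, 3 gained one with the same sign and 7 changed sign. Of the values that changed sign with library size alone, CYBRD1, ACO1, SLC39A14 and GTPBP10 also lost their call and DBF4 gained one (edgeR adjusted p = 0.0356). Same-numbered libraries did not deviate together (r = -0.0673, -0.025 and 0.00986 for numbers 1, 2 and 3). These correlations are over all genes tested, whatever their level, and cannot decide whether the numbers pair cultures. With the replicate block 13503 genes were called, 6 members higher and 3 lower, 81 pathway genes (55 higher and 26 lower), and the calls of the members did not change. STEAP1 was 1.16 with that block. The blocked ratio differences were the same, with an exact sign-flip p = 0.25, the smallest possible. Depth limits TF, HAMP, CP and HEPH, all under 1 CPM.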
